A study of Sus scrofa with 14 samples.

Results

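The genes described here present peptides to T cells through the major histocompatibility complex, which in the pig is called the swine leukocyte antigen (SLA) complex. They were chosen by symbol as 10 listed genes, and 8 of them were found among the 21280 genes of the deposited expression tables. These 8 are B2M, TAP1 and TAP2 of the class I pathway and CIITA, CD74, SLA-DRA, SLA-DQB1 and SLA-DMB of the class II pathway. The expression of SLA-DRB1 and SLA-DQA1 was not analysed here because no ID in the table of gene names matched either of them, but both could be placed on the genome. The row used as B2M carries an ID that the study itself pairs with that symbol, and RefSeq annotates 2 B2M genes side by side on chromosome 1, so reads may be shared between these copies and the values of B2M are uncertain to that extent. SLA-DRA was taken from the row named HLA-DRA.

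Adipose tissue was taken from wild boars and from Bama pigs, a domestic line, all of them females 2 years of age kept on the same farm, where the wild boars had been taken when young, with 2 animals per breed. The greater omentum (GOM) is a visceral fat depot and the upper layer of backfat (ULB) is a subcutaneous one. Of each assay, RNA-seq and Hi-C, 7 libraries were used, that is 2 per breed and depot except for a single one from the ULB of Bama pigs, which carries replicate number 2. No treatment or genotype separated the groups, and with 2 animals a breed cannot be told apart from the animals that stand for it.

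Class I molecules pair a heavy chain with B2M and display peptides that TAP1 and TAP2, the subunits of the peptide transporter, carry into the endoplasmic reticulum. Nearly all nucleated cells carry class I. Class II molecules pair an alpha with a beta chain (SLA-DRA with SLA-DRB1, SLA-DQA1 with SLA-DQB1), are held by the invariant chain CD74 until they reach the endosome and are loaded there with the help of the DM dimer, to which SLA-DMB contributes the beta chain. Class II is best known from dendritic cells, macrophages and B cells, of which adipose tissue holds macrophages in particular. CIITA is the master transcriptional coactivator of the class II genes and acts through factors bound to the X and Y boxes of their promoters. SLA-DRB1, SLA-DQA1 and SLA-DQB1 are highly polymorphic and SLA-DRA is far less so, whereas B2M, CD74 and CIITA are not polymorphic in this way.

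The X and Y boxes were looked for in the 250 bases before the annotated start of each member, in the RefSeq annotation of Sscrofa11.1, on both strands. The X box was taken as CC, a free letter, AG, 2 free letters, AC, a free letter and GATG in a row, which gives 10 defined letters, and the Y box as ATTGG, and no X box overlapped a Y box. The full X box was found in the promoters of SLA-DQB1 and SLA-DMB, that is in 2 of the 10 genes, and in 6 of all 19556 promoters of the same length (0.0307%). The closest stretch to it in SLA-DRA and SLA-DRB1 was 2 of 10 defined letters off, a distance met or bettered by 18.2% of all promoters, and that of SLA-DQA1 was 3 letters off, as near as in 82.5% of all promoters. TAP1 held a stretch 1 letter off (1.34% of all promoters), with a Y box 44 bases after it. A closest X box exists in every promoter by its definition. How many of all promoters hold a Y box after it on the same strand, and at what gap, was not counted. The stretches below are shown because in all 5 SLA chains a Y box follows the closest X box on the same strand. They run 5′ to 3′ with 8 bases on either side, and capitals mark the closest X box first and the Y box second.
SLA-DRA: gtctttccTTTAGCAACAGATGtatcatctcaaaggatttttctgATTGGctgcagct
SLA-DRB1: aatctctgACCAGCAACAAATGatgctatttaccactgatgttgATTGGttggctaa
SLA-DQA1: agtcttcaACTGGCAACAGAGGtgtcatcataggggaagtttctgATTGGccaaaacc
SLA-DQB1: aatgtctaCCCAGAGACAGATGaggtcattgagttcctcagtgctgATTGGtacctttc
SLA-DMB: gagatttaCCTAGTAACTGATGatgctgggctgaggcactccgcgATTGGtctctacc

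The gap between both boxes was 23 bases in SLA-DRA, SLA-DQA1 and SLA-DMB, 22 in SLA-DRB1 and 24 in SLA-DQB1. The stretch of SLA-DRA lies at chr7:24824952-24825009 on the plus strand and that of SLA-DQA1 at chr7:24953370-24953427 on the plus strand. Those on the minus strand are chr7:24914069-24914125 for SLA-DRB1, chr7:24977314-24977372 for SLA-DQB1 and chr7:25125127-25125184 for SLA-DMB. The Y box alone was present in 7 of the 10 genes, TAP1 and CD74 included, and in 31.9% of all promoters. In CD74 the Y box was on the reverse strand. The closest X box of CD74 was 3 letters off and on the other strand, so no Y box followed it on the same strand. The X box pattern had a fixed length, so a box with an added or missing base would not be matched.

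Of the interferon-response motifs, the ISRE core, GAAA and GAAA with 2 free letters between them, was found in 3.01% of all promoters and, among the members, before B2M alone, where 2 overlapping matches stood close to the start. The last 60 bases before the start of the first B2M copy (chr1:126844044-126844103, minus strand) are shown for these matches, which are in capitals.
B2M: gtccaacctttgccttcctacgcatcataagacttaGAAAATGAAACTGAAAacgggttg

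The GAS motif TTCNNNGAA was found before SLA-DQB1 and in 6.12% of all promoters. CIITA and TAP2 held no match to any of these 4 motifs in this window. Such matches describe the sequence and do not show that a factor binds there.

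The RNA-seq libraries held between 10833153 and 18627076 estimated counts. Average-linkage clustering on Spearman's rho over 17877 genes put Bama pig GOM 1 and Bama pig ULB 2 apart from the other 5 libraries, so comparisons below are also given without these 2 libraries. TPM, a level scaled for transcript length and library size, is used below. Its median over 13574 genes was lower in wild boar GOM than in Bama pig GOM by a log2 difference of -0.51, so breeds are compared on log2 counts scaled by TMM-normalized library size (log2 CPM), where this median shift is 0. Of 8 liver and pancreas transcripts 6 could be tested for the breed over both depots. ALB and FGB of the liver fell in wild boars, by 5.66 (edgeR adjusted p = 0.00298) and by 4.14 (edgeR adjusted p = 0.0159) on the log2 scale, TTR (-3.70) and SERPINA1 (-2.60) lay in the same direction, and APOA1 (0.39) and CPB1 (3.87, edgeR adjusted p = 0.198) in the other. The 8 summed to 174 to 218 TPM in wild boars and 249 to 1275 TPM in Bama pigs, and their part in the breed differences of the members was not tested.

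All 8 members were expressed in every library. The lowest value of any member was 197 estimated counts, of TAP2 in Bama pig ULB 2, and 0 of 8 members were at 3 counts or fewer in 1 library and at 100 or more in another, a pattern found in 2.32% of 12355 genes. At that share 0 of 8 genes is not unusual. Of the chains named above as highly polymorphic, only SLA-DQB1 is among the 8. The expression of SLA-DRB1, SLA-DQA1 and the SLA heavy chains of class I was not analysed here. The ratio of the highest to the lowest TPM over the 7 libraries was 2.30 in CD74, 2.94 in CIITA, 3.06 in B2M, 3.32 in SLA-DRA, 3.51 in TAP2, 3.89 in TAP1, 4.17 in SLA-DQB1 and 7.14 in SLA-DMB. The median ratio over 13143 genes was 2.95, and 84.8% of these genes had a smaller ratio than SLA-DMB. B2M, the light chain of class I, had the highest mean level, at 3752 TPM ± 1456 (SD, n = 7). CD74 followed at 1005 TPM ± 303 and was in turn above SLA-DQB1 (294 TPM ± 153) and SLA-DRA (190 TPM ± 88.9). The ranges of B2M and CD74 did not overlap, nor did those of CD74 and SLA-DQB1, while SLA-DQB1 and SLA-DRA overlapped. SLA-DMB at 25.0 TPM ± 16.4 and TAP1 at 23.7 TPM ± 11.6 overlapped in range, as did TAP2 at 9.29 TPM ± 3.86 and CIITA at 7.32 TPM ± 3.33.

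**Figure D1:**
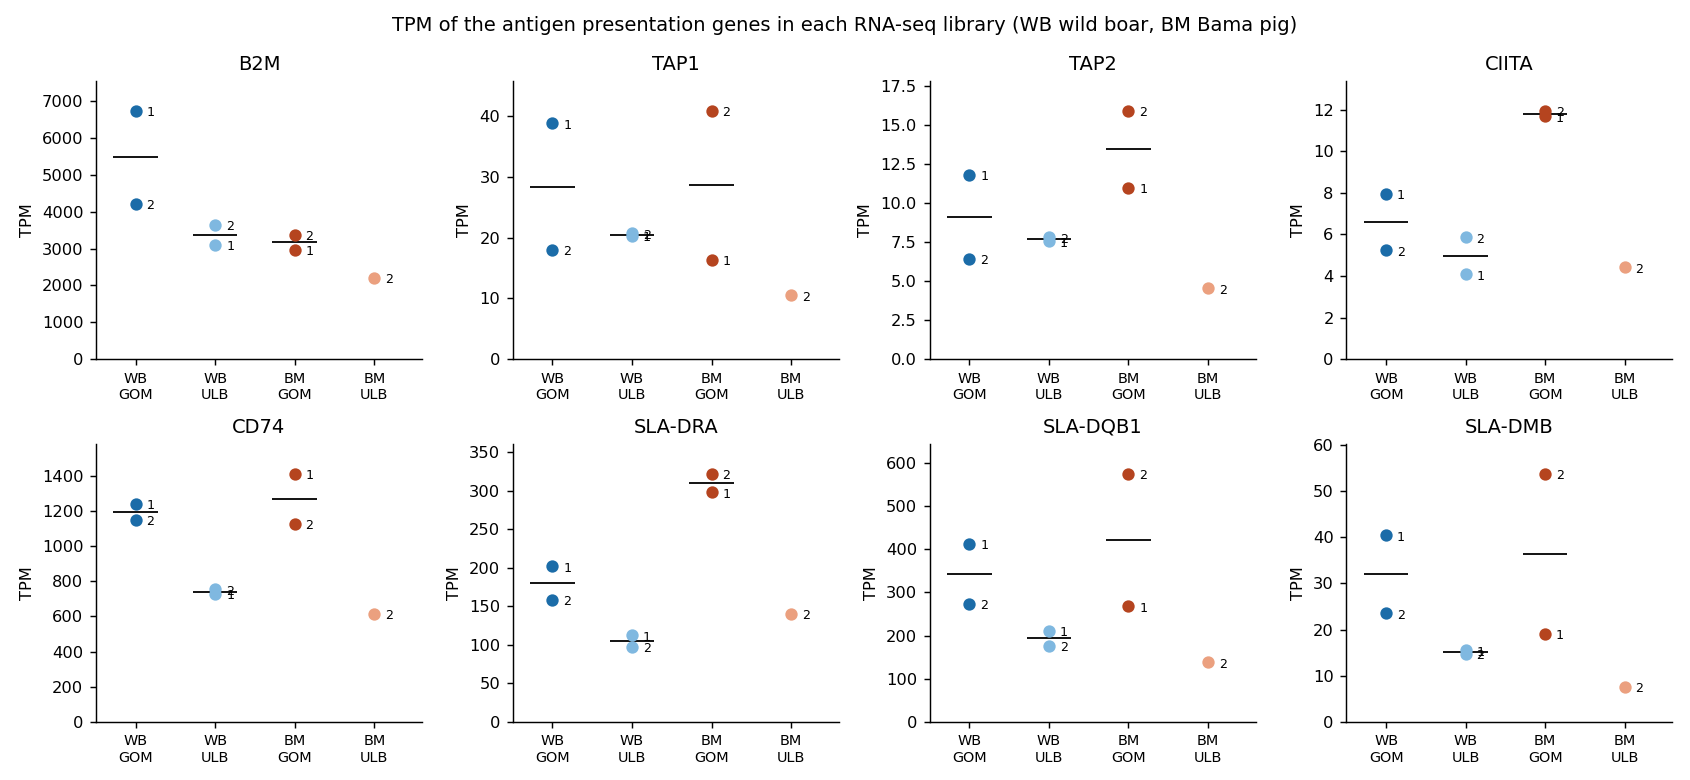
TPM of each of the 8 expressed members (one panel per gene, each vertical axis from 0) in the 7 RNA-seq libraries by breed and depot, with points as libraries labelled by replicate number and bars as means of 2 libraries. CD74, SLA-DRA, SLA-DQB1 and SLA-DMB separate the GOM from the ULB libraries, and TAP1, SLA-DQB1 and SLA-DMB are spread widely between both Bama pig GOM libraries.

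The class I members were examined first across the libraries. B2M was at 6742 and 4216 TPM in wild boar GOM 1 and 2, at 3108 and 3641 TPM in wild boar ULB 1 and 2, at 2972 and 3376 TPM in Bama pig GOM 1 and 2, and at 2205 TPM in Bama pig ULB 2. Wild boar GOM stood highest, and the Bama pig libraries overlapped those of wild boar ULB. TAP1 was at 38.9 and 18.0 TPM in wild boar GOM, at 20.3 and 20.7 TPM in wild boar ULB, at 16.4 and 40.9 TPM in Bama pig GOM and at 10.5 TPM in Bama pig ULB. TAP2 was at 11.8 and 6.43 TPM in wild boar GOM, at 7.55 and 7.81 TPM in wild boar ULB, at 10.998 and 15.9 TPM in Bama pig GOM and at 4.54 TPM in Bama pig ULB. For both transporter subunits the spread within GOM covered the wild boar ULB values, and the Bama pig ULB library was lowest.

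Among the class II members, CIITA was at 7.95 and 5.24 TPM in wild boar GOM, at 4.07 and 5.87 TPM in wild boar ULB, at 11.7 and 12.0 TPM in Bama pig GOM and at 4.43 TPM in Bama pig ULB. The 2 Bama pig GOM libraries were thus nearly equal for the coactivator and above all others. CD74 was at 1242 and 1150 TPM in wild boar GOM, at 728 and 756 TPM in wild boar ULB, at 1415 and 1127 TPM in Bama pig GOM and at 615 TPM in Bama pig ULB. Every GOM library was above every ULB library, and the breeds overlapped. SLA-DRA, the alpha chain of DR, was at 202 and 158 TPM in wild boar GOM, at 112 and 97.1 TPM in wild boar ULB, at 298 and 322 TPM in Bama pig GOM and at 140 TPM in Bama pig ULB. Within each depot the Bama pig values of SLA-DRA were above those of wild boars on this scale, and the depots did not overlap.

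SLA-DQB1, the beta chain of DQ, was at 412 and 274 TPM in wild boar GOM, at 211 and 176 TPM in wild boar ULB, at 268 and 576 TPM in Bama pig GOM and at 138 TPM in Bama pig ULB. SLA-DMB was at 40.4 and 23.6 TPM in wild boar GOM, at 15.5 and 14.8 TPM in wild boar ULB, at 19.03 and 53.8 TPM in Bama pig GOM and at 7.55 TPM in Bama pig ULB. Both chains were higher in every GOM than in every ULB library, and for both Bama pig GOM 2 was highest and Bama pig GOM 1 was close to or below wild boar GOM 2.

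The question of whether visceral and subcutaneous fat differ was answered over both breeds, with 4 GOM against 3 ULB libraries. All 8 members had fitted values above 0, that is higher in GOM, as had 51.1% of all genes. None of them passed the test, which asked for a change of over 1 log2 unit in either direction with an edgeR adjusted p under 0.05 and which 3.58% of 17877 genes passed. SLA-DMB came nearest, with a log2 fold change of 1.4997 (SE 0.39, edgeR adjusted p = 0.0634). It was followed by SLA-DRA at 0.88 (SE 0.26, edgeR adjusted p = 0.0972) and SLA-DQB1 at 1.09 (SE 0.33, edgeR adjusted p = 0.106). DESeq2 on the same libraries called 2 members, SLA-DMB (adjusted p = 0.00615) and SLA-DQB1 (adjusted p = 0.0336), beside 7.83% of genes. In simulated data 17.83% of the calls that DESeq2 made for this comparison were false against 6.09% with edgeR. The simulated counts had 8-fold changes and a spread estimated by edgeR, so they do not rank the 2 tools for the members. The depots came from the same 2 animals of each breed, and with breed and replicate number as a block SLA-DMB (1.65, edgeR adjusted p = 0.0103) and SLA-DQB1 (1.25, edgeR adjusted p = 0.0351) passed, beside 4.44% of genes, although the labels do not state that a number marks an animal.

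The remaining class II members had depot values of 0.76 for CIITA (SE 0.25, edgeR adjusted p = 0.132) and 0.79 for CD74 (SE 0.29, edgeR adjusted p = 0.167). Of the class I members, TAP1 was at 0.80 (SE 0.37, edgeR adjusted p = 0.259), TAP2 at 0.71 (SE 0.30, edgeR adjusted p = 0.226) and B2M at 0.57 (SE 0.32, edgeR adjusted p = 0.353). The median log2 fold change was 0.88 for the 5 class II members and 0.71 for the 3 class I members, beside 0.02 over all genes. Before adjustment 6 of the 8 members had p below 0.05 (all 5 of class II, and TAP2), each with the higher level in GOM, beside 10.9% of all genes higher in GOM by that measure. On the log2 CPM scale, 4 members (TAP2, CIITA, CD74 and SLA-DRA) had every GOM library above every ULB library, a separation seen in 7.98% of genes. On the TPM scale the 4 were CD74, SLA-DRA, SLA-DQB1 and SLA-DMB, beside 8.28% of genes, so CD74 and SLA-DRA separated the depots on both scales. Without the 2 Bama pig libraries that clustered apart, no Bama pig ULB library was left, so the depot values came from the 4 wild boar libraries. They ranged from 0.41 for TAP2 to 1.25 for SLA-DMB (edgeR adjusted p = 0.0745) and again none passed, beside 2.12% of genes.

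**Figure D2:**
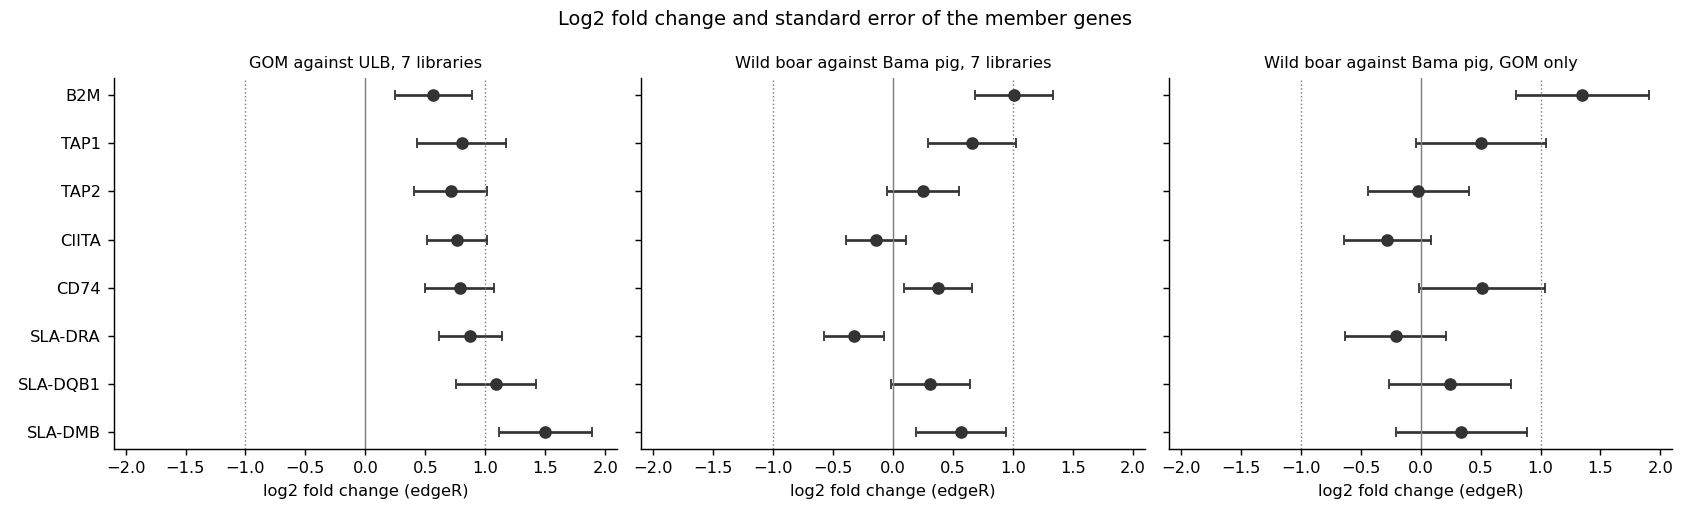
Log2 fold change of the 8 members from edgeR (points, with standard errors as bars) for GOM against ULB over 7 libraries, wild boar against Bama pig over 7 libraries, and wild boar against Bama pig in the 4 GOM libraries, with dotted lines at -1 and 1. All 8 members are right of 0 for the depot, from 0.57 for B2M to 1.4997 for SLA-DMB, while for the breed B2M lies farthest right and CIITA and SLA-DRA lie left of 0.

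Within the wild boars, the mean log2 CPM of GOM was above that of ULB by 1.27 for SLA-DMB, 1.05 for SLA-DQB1, 1.02 for SLA-DRA, 0.93 for CD74 and 0.91 for B2M. No test was made within either breed on this scale. Within the Bama pigs, with 1 ULB library, the differences were 1.61 for SLA-DMB, 1.03 for SLA-DQB1, 0.68 for SLA-DRA, 0.57 for CD74 and 0.05 for B2M. The difference between breeds in the depot effect was tested as an interaction, in which the single Bama pig ULB library was assumed to vary like the other groups. No member and 0 of 17877 genes passed with edgeR (869 genes had an unadjusted p below 0.05, and no member did). For B2M the interaction was 0.86 (SE 0.61, edgeR adjusted p = 0.986).

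Markers of immune cells moved with the depot in the same libraries. Among all genes, 51.1% were above 0 for the depot and 3.58% passed the test. Of 5 leukocyte markers, 5 had values above 0 and CD53 rose in GOM, by 1.29 on the log2 scale (edgeR adjusted p = 0.0474). Their summed level was 322 to 549 TPM in GOM and 172 to 225 TPM in ULB. Of 11 macrophage markers, 11 were above 0 and the 3 that rose in GOM were C1QC (1.56, edgeR adjusted p = 0.0372), VSIG4 (2.12, edgeR adjusted p = 0.00859) and MARCO (5.18, edgeR adjusted p = 0.0144), with a summed level of 1029 to 2456 TPM in GOM and 593 to 806 TPM in ULB. The 6 dendritic cell markers summed to 10.04 to 16.2 TPM in GOM and 4.19 to 6.52 TPM in ULB, and CD1E was at 0 in Bama pig ULB 2. All 6 T cell markers were above 0 and CD2 rose (1.70, edgeR adjusted p = 0.0278), with summed levels of 17.9 to 55.6 TPM in GOM and 12.5 to 13.2 TPM in ULB, whereas B cell markers overlapped (14.3 to 48.9 TPM in GOM, 15.3 to 21.9 TPM in ULB). Of 2 mesothelial markers tested, WT1 rose in GOM by 8.79 (edgeR adjusted p = 0.000314) and KRT18 was at 0.13 (edgeR adjusted p = 0.943). WT1 was at 0 in wild boar ULB 1, so the size of its change is uncertain. The summed adipocyte markers overlapped (9115 to 16846 TPM in GOM, 13457 to 17018 TPM in ULB). The part of these cells in the depot values of the members was not tested, and in such bulk samples fewer cells of a type and less RNA per cell cannot be told apart.

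Other genes of the antigen presentation pathway were taken from lists, and none of them passed the depot test, which 3.58% of all genes passed. Among all genes, 51.1% were above 0 and 10.9% were higher in GOM with an unadjusted p below 0.05. The immunoproteasome cuts the peptides that class I displays, and its list also held genes of proteasome activators. In this list 6 of 6 genes were above 0 and 2 of them had an unadjusted p below 0.05, PSMB8 (log2 fold change 1.29, edgeR adjusted p = 0.0931) and PSMB10 (0.76, edgeR adjusted p = 0.181). Of 10 genes of class I loading and transcription, 8 were above 0 and 6 had an unadjusted p below 0.05 with the higher level in GOM, among them TAPBP, which tethers class I to the transporter (0.66, edgeR adjusted p = 0.224), and NLRC5, the class I counterpart of CIITA (0.84, edgeR adjusted p = 0.186). The 3 further class II chains were SLA-DOB at 1.40 (edgeR adjusted p = 0.125), SLA-DMA at 0.94 (edgeR adjusted p = 0.157) and SLA-DOA at 0.51 (edgeR adjusted p = 0.422). Of 16 genes of class II processing and transcription, a list that also held costimulatory molecules of antigen-presenting cells, 13 were above 0, with a median of 0.48. Among these 16, 3 had an unadjusted p below 0.05 with the higher level in GOM and 1 with the lower. The lists of interferon response genes had medians below 0, at -0.14 for 13 genes of the interferon-gamma response and -0.25 for 10 of the type I response.

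For the breed, the 4 GOM libraries gave the comparison in which each breed had 2 libraries. Of the 8 members 5 had values above 0 (49.2% of all genes), and none passed (0.0241% of 16615 genes did, and 1329 genes had an unadjusted p below 0.05), and DESeq2 called none of them, beside 1.01% of genes. B2M had the largest value among the members, higher in wild boars by 1.35 on the log2 scale (SE 0.55, edgeR adjusted p = 0.616), and was the only member with an unadjusted p below 0.05, beside 3.29% of genes higher in wild boars by that measure. CD74 was at 0.51 (SE 0.53, edgeR adjusted p = 0.777) and TAP1 at 0.51 (SE 0.54, edgeR adjusted p = 0.785). SLA-DMB was at 0.34, SLA-DQB1 at 0.25 and TAP2 at -0.02, and these 3 and TAP1 changed sign when single libraries were left out. CIITA at -0.28 (SE 0.36, edgeR adjusted p = 0.823) and SLA-DRA at -0.21 (SE 0.42, edgeR adjusted p = 0.894) lay in the other direction. In log2 CPM both wild boar GOM libraries were above both Bama pig GOM libraries for B2M and CD74 and below them for CIITA and SLA-DRA, beside 19.8% and 21.5% of genes that separated in these directions. For CIITA and SLA-DRA the breeds nearly touched. The highest wild boar and lowest Bama pig values were 5.29 and 5.30 for CIITA and 8.77 and 8.79 for SLA-DRA. On the TPM scale B2M, CIITA and SLA-DRA separated in the same way, CD74 overlapped, and the shares of genes were 3.98% and 49.5%.

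The libraries of both depots came from 2 animals per breed, and the fit of the breed over both depots treated the depots of 1 animal as separate. Over both depots, with 4 wild boar and 3 Bama pig libraries, B2M was again the member farthest from 0, at 1.01 (SE 0.33, edgeR adjusted p = 0.144), and none of the 8 passed (0.42% of 17877 genes did). Values above 0 were found for 6 members and 47.6% of genes. Its log2 CPM was 10.25 to 11.41 in wild boars and 9.68 to 9.99 in Bama pigs, without overlap, as was the case in this direction for 5% of genes. TAP1 was at 0.66 (SE 0.37, edgeR adjusted p = 0.316), SLA-DMB at 0.57 (SE 0.38, edgeR adjusted p = 0.394) and CD74 at 0.38 (SE 0.28, edgeR adjusted p = 0.454). SLA-DQB1 at 0.31, TAP2 at 0.25, CIITA at -0.14 and SLA-DRA at -0.33 had adjusted p between 0.467 and 0.765 (edgeR). Without Bama pig GOM 2, TAP1 (1.13, edgeR adjusted p = 0.05) and SLA-DMB (1.14, edgeR adjusted p = 0.0324) passed, and 1805 genes in all instead of 75. Without the 2 Bama pig libraries that clustered apart, TAP1 was at -0.05, SLA-DMB at -0.26, SLA-DQB1 at -0.25 and TAP2 at -0.32, so the direction of these 4 members depended on which Bama pig libraries were used. B2M was at 1.19 in that fit (SE 0.41, edgeR adjusted p = 0.652), and none passed (0.0507% of genes did). Bama pig GOM 2 was then the only Bama pig library and was assumed to vary like those of wild boars, whose spread alone gave the SE. Of the 11 macrophage markers, 9 were above 0 in wild boars over both depots (CD68 at -0.66 and AIF1 at -0.0049 were not) and 11 in the GOM comparison. In each, 5 of them had an unadjusted p below 0.05, all with the higher level in wild boars. Among all genes, 3867 of 17877 had such a p in either direction over both depots. In GOM 49.2% of genes were above 0, and 3.29% had such a p with the higher level in wild boars. The summed levels of the macrophage markers over both depots were 682 to 2456 TPM in wild boars and 593 to 1525 TPM in Bama pigs, which overlapped, and their part in the value of B2M was not tested. In the ULB, where the Bama pig has 1 library and no test was made, the mean log2 CPM of wild boars differed from it by 0.89 for SLA-DMB, 0.85 for TAP1, 0.65 for TAP2, 0.50 for B2M and -0.53 for SLA-DRA.

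The members were also set against a common reference within each library. Relative to CD74, the log2 ratio of TPM (0.1 added to both) had an SD over the 7 libraries of 0.39 for CIITA, 0.42 for SLA-DRA, 0.43 for TAP2, 0.46 for B2M, 0.47 for SLA-DQB1, 0.61 for TAP1 and 0.68 for SLA-DMB. Relative to B2M it was 0.46 for CD74, 0.48 for TAP1, 0.58 for TAP2, 0.59 for SLA-DQB1, 0.71 for both CIITA and SLA-DMB and 0.79 for SLA-DRA. The order thus depended on the reference. The highly polymorphic SLA-DQB1 varied more than the non-polymorphic CIITA relative to CD74 and less than CIITA relative to B2M, and whether alleles contribute to these values was not tested. The ratio of SLA-DQB1 to SLA-DRA, the chains of different class II molecules, was 2.05 and 1.73 in the GOM of wild boars, 1.88 and 1.82 in their ULB and 1.79 in Bama pig GOM 2, but 0.90 in Bama pig GOM 1 and 0.99 in Bama pig ULB 2.

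These are the 2 libraries that clustered apart over all genes, and the dimer partners SLA-DMA and SLA-DMB parted in them as well. SLA-DMA, named here after its values were seen, was at 21.9 and 13.5 TPM in wild boar GOM, at 8.27 and 8.31 TPM in wild boar ULB, at 47.7 and 24.4 TPM in Bama pig GOM 1 and 2 and at 19.3 TPM in Bama pig ULB 2. Its ratio to SLA-DMB was 0.54 and 0.57 in the GOM of wild boars, 0.53 and 0.56 in their ULB and 0.45 in Bama pig GOM 2, against 2.51 in Bama pig GOM 1 and 2.55 in Bama pig ULB 2. Between both Bama pig GOM libraries, SLA-DMA was thus higher in library 1 and SLA-DMB higher in library 2, while SLA-DRA and CIITA were nearly equal. The ratio of TAP1 to TAP2 was 1.49 in Bama pig GOM 1 and between 2.32 and 3.29 in the other 6 libraries. Pseudoalignment to 1 reference set of SLA transcripts can lose reads of other alleles, and neither its part in these ratios nor that of the wider difference of the 2 libraries was tested.

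**Figure D3:**
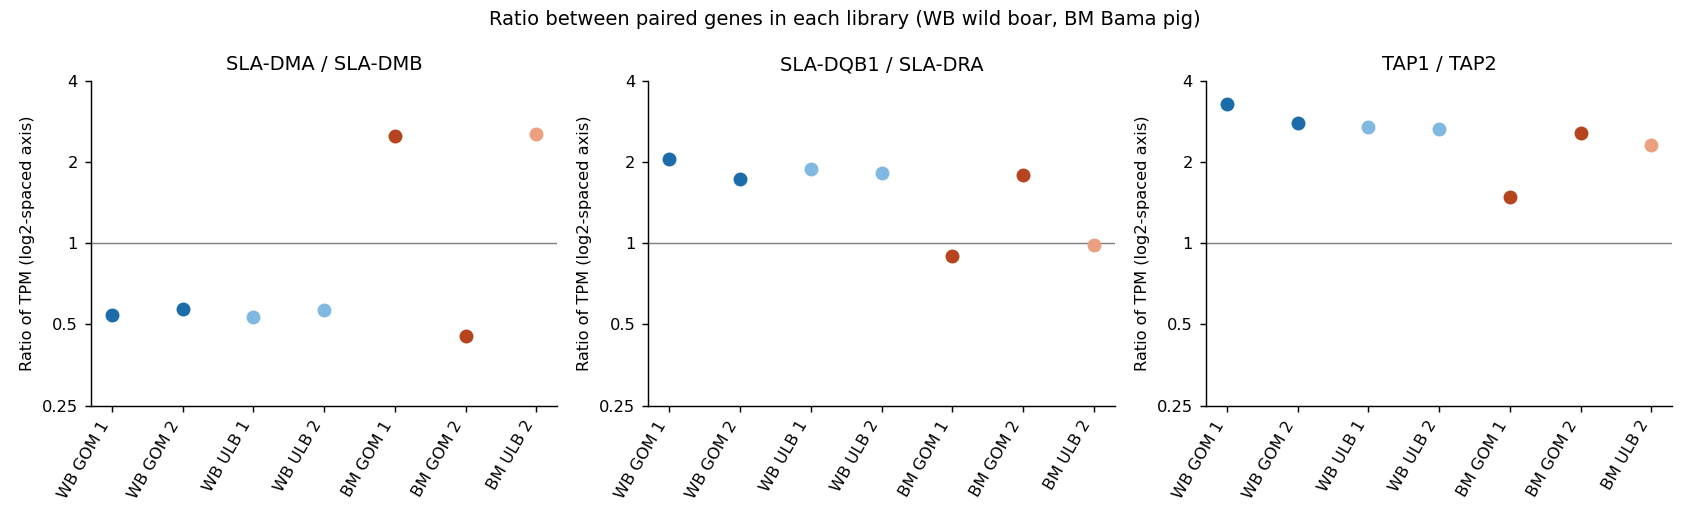
Ratio of TPM between SLA-DMA and SLA-DMB, SLA-DQB1 and SLA-DRA, and TAP1 and TAP2 in each RNA-seq library (points, coloured by breed and depot, on a log2-spaced axis with a line at 1). Bama pig GOM 1 and Bama pig ULB 2 lie on the other side of 1 from the remaining 5 libraries in the first 2 panels, at 2.51 and 2.55 for SLA-DMA over SLA-DMB and at 0.90 and 0.99 for SLA-DQB1 over SLA-DRA.

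The genes whose log2(TPM + 1) followed CD74 most closely over the 7 libraries, of 11517 ranked, were DCLK1 (r = 0.993), MCOLN2 (r = 0.99), PCSK5 (r = 0.989), PGBD2 (r = 0.987) and EZR (r = 0.987). Among the members the nearest to CD74 was CIITA, at rank 1093 (r = 0.782), followed by SLA-DRA at rank 1109 (r = 0.779), and TAP1 was farthest at rank 3419 (r = 0.501). The genes most like B2M were MATN4 (r = 0.967), C2 (r = 0.961), RASL11B (r = 0.954), LMO7 (r = 0.948) and ST3GAL3 (r = 0.945), with TAP1 nearest of the members at rank 469 (r = 0.71) and SLA-DRA farthest at rank 4647 (r = 0.104). These correlations are over 7 libraries that share animals, depots and TPM scaling, and they serve as a description only.

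Chromatin compartments were read from the first principal component (PC1) of the Hi-C contact matrices in 20-kb bins, where a value above 0 marks the open compartment A and a value below 0 the closed compartment B. The 7 members on chromosome 7 lie within 300.1 kb, from SLA-DRA at 24825037 to the end of SLA-DMB at 25125089, with TAP2 (25045085 to 25056915) and TAP1 (25062772 to 25071989) between the classical chains and SLA-DMB. CD74 lies on chromosome 2 (151402210 to 151409924), CIITA on chromosome 3 (32171706 to 32230775) and the 2 annotated copies of B2M on chromosome 1 (126837721 to 126844043 and 126865767 to 126878501). Counting both B2M copies, 10 of 11 start sites were in compartment A in all 7 Hi-C libraries, beside 72.0% of the start sites of protein-coding genes. None of the 11 switched compartment between the breeds in GOM or in ULB, beside 2.41% of all bins in GOM and 3.41% in ULB. A switch asked for 1 sign in all libraries of a breed, which in ULB was 1 library for the Bama pig, so the 2 shares are not comparable.

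SLA-DRA was the exception, with PC1 values of 8.47 and 5.24 in the GOM of wild boars, -1.83 and 3.07 in their ULB, 16.95 and 10.76 in Bama pig GOM and 3.32 in Bama pig ULB. It thus lay close to the border between the compartments, and its 4 GOM values were above its 3 ULB values, as was found at 4 of the 11 start sites (SLA-DRA, SLA-DQB1, TAP1 and CIITA) beside 9.22% of all start sites. SLA-DQB1 was at 15.31 and 12.14 in the GOM of wild boars, 2.40 and 8.10 in their ULB, 23.49 and 11.21 in Bama pig GOM and 4.19 in Bama pig ULB, which gave the same order. TAP1 was at 26.25 to 32.18 in GOM and at 18.26 to 24.66 in ULB, and CIITA at 25.84 to 33.89 in GOM and at 17.83 to 21.86 in ULB. As percentiles of the bins on its chromosome, the depots overlapped for TAP1, with wild boar GOM 1 at 73.4 and wild boar ULB 1 at 75.5. On that scale SLA-DRA, SLA-DQB1 and CIITA still separated the depots, and the share of all start sites was not counted. For SLA-DRB1, SLA-DQA1, TAP2 and SLA-DMB the depots overlapped, with PC1 from 5.02 in SLA-DRB1 to 38.98 in SLA-DMB. B2M (51.42 to 80.55 over both copies) and CD74 (79.00 to 93.92) had the highest values, and for neither were the depots apart. This separation was not tested, and the scale of PC1 is set within each library and chromosome. The members on chromosome 7 are close neighbours, so their start sites are not independent of each other.

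**Figure D4:**
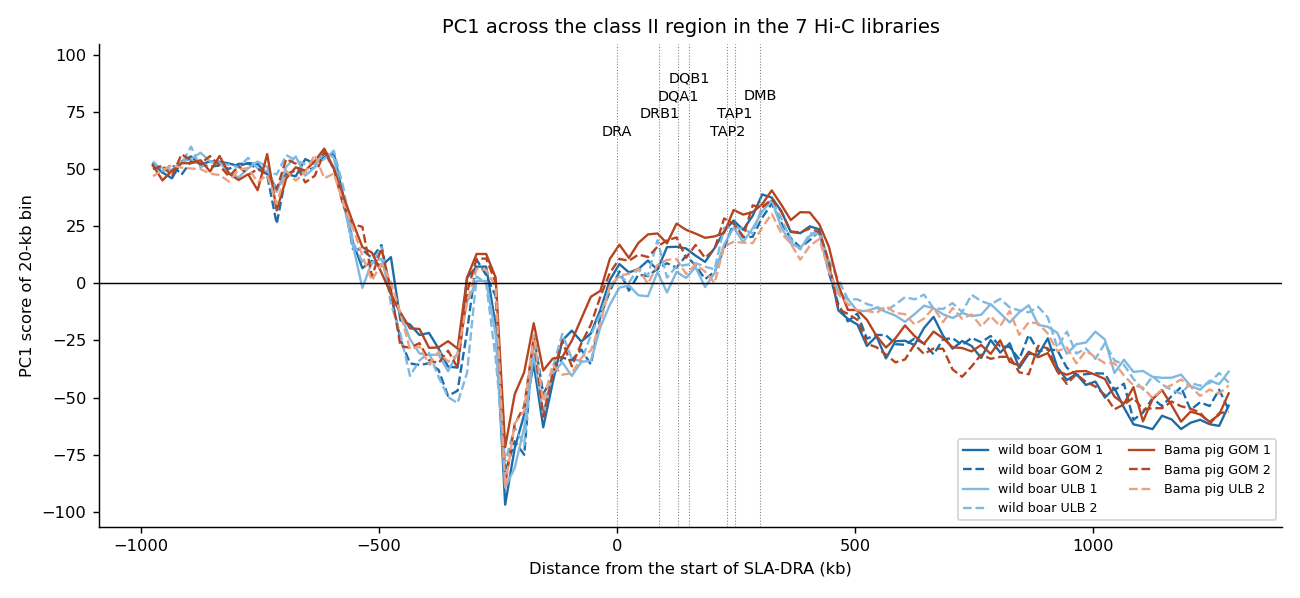
PC1 score of 20-kb bins against distance from the start of SLA-DRA (kb) in the 7 Hi-C libraries, coloured by breed and depot and drawn solid for replicate 1 and dashed for replicate 2, with dotted lines at the member start sites and the prefix SLA- left off. Of the 16 bins that the members span, 10 are above 0 in all 7 libraries and the others are below 0 in at least 1, and PC1 is higher at SLA-DMB than at SLA-DRA, rising from SLA-DRA (-1.83 to 16.95) to SLA-DMB (24.50 to 38.98).

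Topologically associating domains (TADs), blocks of chromosome that contact themselves more than their surroundings, were given in 1 list per breed and depot with replicates merged, so no replicate error can be given. The study merged each pair of replicates, and for Bama pig ULB it took 1 Hi-C library from earlier work. That library is not among those used here. In all 4 lists SLA-DRA, SLA-DRB1, SLA-DQA1, SLA-DQB1 and TAP2 shared a TAD. It was 700 kb long in Bama pig GOM, where it also held TAP1 and SLA-DMB. It was 500 kb long in Bama pig ULB and 520 kb in wild boar ULB, where it held TAP1 but not SLA-DMB, and 500 kb in wild boar GOM, where the start of TAP1 fell between TADs. In these 3 lists SLA-DMB lay in the next TAD, of 180 kb, 160 kb and 200 kb in Bama pig ULB, wild boar ULB and wild boar GOM. The start of CD74 was in a TAD in Bama pig GOM (1235 kb) and wild boar ULB (535 kb) and between TADs in the other 2 lists. CIITA was in a TAD of 140 kb in both ULB lists and between TADs in both GOM lists, and both copies of B2M shared a TAD in each list, of 140 kb in both ULB lists, 200 kb in wild boar GOM and 900 kb in Bama pig GOM.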

How the data were processed

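RNA-seq libraries were stranded and ribosomal RNA depleted. Kallisto (0.43.0 in the submitters' processing notes) was run by the authors on the coding transcripts of Sscrofa 11.1, and they deposited estimated counts and TPM for every gene in each library. Hi-C files deposited by the authors hold, for each library, the PC1 score of 20-kb bins of the normalized contact matrices, and TAD coordinates per breed and depot on merged replicates. All 18 autosomes had the length of the RefSeq assembly used for positions and promoters.

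Groups came from the labels. The members and gene lists were chosen with earlier results of these data known. Estimated counts were rounded, genes above 0.1 TPM in every library of at least 1 group were kept, and TMM normalization and the quasi-likelihood test of edgeR 4.0.16 (R 4.3.3) were used with Benjamini-Hochberg adjustment over all genes tested. SE was the absolute log2 fold change over the root of F. Log2 CPM had a prior count of 2. Depot was tested with breed in the model, breed over both depots with depot in the model. Named genes were the members, the list genes that passed the test, the listed SLA chains and the 5 genes most like CD74 and B2M. PSMB8, PSMB10, TAPBP and NLRC5 were named after their values were seen. Genes with a mean TPM of 1 or more were ranked for likeness. Of 200 genes simulated with an 8-fold change, the edgeR fit recovered 92.5% for the depot (17877 genes), 89.5% for the breed over both depots (17877 genes) and 77.5% for the breed in GOM (16615 genes). Changes of the members in these fits were smaller, at most 2.83-fold (SLA-DMB for the depot). How often changes of that size are recovered was not simulated. Alternatives were DESeq2 1.42.0, limma 3.58.1, other normalizations and filters, a replicate block and leaving out libraries. Labels do not tie libraries to animals, so p-values measure the spread between these libraries.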

Additional observations from a re-analysis of the deposited data

How the results depend on the processing

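Of the values of single members under alternatives that left out no single library in turn, 198 kept their direction and their side of the threshold, 5 passed it newly and 5 changed sign. The sign changes were TAP2 for the breed in GOM with a mean per group over 7 libraries (0.001) and, without the 2 Bama pig libraries that clustered apart (chosen after seeing the data), TAP1 (-0.052), TAP2 (-0.32), SLA-DQB1 (-0.25) and SLA-DMB (-0.26) for the breed over both depots. Leaving out each library in turn, the breed values in GOM ranged from -0.042 to 1.42 for TAP1, -0.37 to 0.37 for TAP2, -0.24 to 1.01 for SLA-DQB1 and -0.25 to 1.39 for SLA-DMB, and TAP2 over both depots from -0.0185 to 0.50; without Bama pig GOM 1, TAP1, SLA-DQB1 and SLA-DMB were below 0 in GOM. The depot value stayed above 0 for all 8 members in every alternative run.

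Members called for the depot were 2 with DESeq2 (SLA-DQB1 and SLA-DMB), 1 without the filter (SLA-DMB, adjusted p = 0.0212, edgeR) and 0 to 1 when each library was left out, SLA-DMB passing without Bama pig GOM 1 (adjusted p = 0.0238, edgeR) or Bama pig GOM 2 (adjusted p = 0.0367, edgeR). Over its alternatives the adjusted p of SLA-DMB ran from 0.00615 to 0.286. For the breed over both depots it was 0 to 2 when each library was left out. Genes called for the breed in GOM were 4 by edgeR as reported, 167 with DESeq2, 26 without the filter and 0 to 123 with each library left out. Over both depots they were 75, and 1157 with DESeq2, 216 with limma (breed and replicate number together as a random effect), 503 without the filter, 9 without the libraries that clustered apart and 1 to 1805 with each library left out. For the depot they were 640, and 1399 with DESeq2, 999 without the filter, 318 in wild boars alone, 377 without the libraries that clustered apart and 230 to 656 with each library left out. Upper-quartile normalization shifted the median of all genes to -0.14 for the breed in GOM and -0.18 over both depots, and of its calls over both depots 13 were higher and 60 lower in wild boars, beside 22 and 53 with TMM; for the breed in GOM 1 was higher and 2 were lower, beside 2 and 2.

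The replicate number as a block gave 15 genes for the breed in GOM (0 members), 65 over both depots (0 members) and 0 for the interaction. For the depot, with breed and number as the block, it called 793 genes and 2 members, SLA-DQB1 (1.25, adjusted p = 0.0351, edgeR) and SLA-DMB (1.65, adjusted p = 0.0103, edgeR). The deviations of same-numbered libraries correlated at r = 0.154 between the wild boar depots and r = 0.15 between the breeds in GOM, over 2 pairs each, and the labels do not state that a number marks an animal, so the block may pair unrelated libraries. The start sites that switched compartment numbered 0 in both depots also with PC1 centred on the chromosome median. The lowest estimated count of a member in any library was 197, so depth did not limit the detection of any member.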
